A study of Mus musculus with 39 samples.

Results

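The genes described are 10 that T lymphocytes use: Cd3d, Cd3e, Cd3g, Cd4, Cd8a, Cd8b1, Lck, Foxp3, Il1rl1 and Gata3. They were chosen by name, with no threshold on their values, and 14 of the 40628 probes of the arrays carry 1 of these names, out of 29411 gene names in all. For each gene the brightest probe stands for the gene and the other probes serve as a check. The tissue was epididymal adipose, the fat pad beside the epididymis, of C57BL/6J mice that entered the study at 3 to 4 weeks of age. Each mouse received 1 of 5 diets. LFC was the low fat control diet with 10% of its calories from fat, measured on 11 arrays, and HFC was the high fat control diet with 60% of calories from fat and increased sucrose, on 10 arrays. HF5, HF20 and HF75 added KAL-1, an aqueous botanical formulation, to the high fat diet at 5, 20 or 75 µg, on 6 arrays each. Each array was 1 diet at 1 time point: week 0 and weeks 3 to 18 in steps of 3 weeks, and days 1, 6, 10 and 14 for the control diets (day 1 only for LFC, and no week 0 or day for the KAL-1 diets). The submitters' text speaks of 3 biological replicates and of 5 animals killed at a time, but 1 array stands for each diet and time point here, and whether its RNA was pooled is not given in the sources used here. Time points therefore served as the replicates, except in the trend over weeks, where single arrays did. The p-values measure the spread between time points and arrays.

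The T cell receptor recognises antigen but signals through the CD3 chains, of which Cd3d, Cd3e and Cd3g encode the delta, epsilon and gamma members. Lck is the kinase that phosphorylates those chains, and it is carried to the receptor by the coreceptors CD4 on helper cells and CD8 on cytotoxic cells, the latter a pair of the chains made by Cd8a and Cd8b1. Foxp3 is the transcription factor that defines regulatory T cells. Visceral fat of lean mice is known for a resident population of regulatory T cells that carry the IL-33 receptor ST2, encoded by Il1rl1, and that use Gata3, a transcription factor also used by type 2 helper cells and innate type 2 lymphocytes. Il1rl1 is made both as a membrane receptor and as a soluble decoy, from different transcripts, and mast cells and other cells express it too. In whole tissue fewer cells of a type cannot be told apart from less RNA per cell.

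The array reads each gene through a 60-base probe, and the probes decide which transcripts a value covers. The Cd3d and Cd3g probes are shown because these genes lie next to each other in the genome and followed each other across arrays, and the Il1rl1 probes because they read different transcripts. The variant 1 probe matches only 1 RefSeq transcript of Il1rl1, the variant 2 probe only another, and the third lies in sequence that both share. Capitals mark nothing in the probe sequences, and for the variant 1 and variant 2 probes only the first 30 bases are given.
Cd3d probe: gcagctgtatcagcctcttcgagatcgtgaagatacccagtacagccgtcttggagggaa
Cd3g probe: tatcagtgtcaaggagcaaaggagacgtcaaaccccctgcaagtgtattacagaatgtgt
Il1rl1 probe shared by both variants: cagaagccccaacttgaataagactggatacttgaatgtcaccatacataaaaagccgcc
Il1rl1 variant 1 probe, first 30 bases: tgaccttatttgcttaccagttacaggtaa
Il1rl1 variant 2 probe, first 30 bases: ctctgtaacaggatcttttgtctagatttc

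Cd3g, Cd3d and Cd3e lie side by side on mouse chromosome 9, with Cd3g at chr9:44969572-44980431 and Cd3d at chr9:44981769-44987052 (RefSeq, GRCm38.p6). Cd3g and Cd3d are read in opposite directions from start sites only 1355 bases apart, while the Cd3e start site lies 27825 bases from that of Cd3d. The 250 bases before the starts of Cd3d and Cd3g are shown because the levels of this divergent pair followed each other across arrays (r = 0.84 over 37 arrays). For Il1rl1, at chr1:40404864-40465418, RefSeq gives 2 start sites 10059 bases apart on the plus strand, and both upstream stretches are shown because the variant 1 and variant 2 probes differed. Capitals mark matches on either strand to letters that T cell transcription factors are known to bind: AGGAAG for the ETS family, AGATAA or TGATAA for GATA factors, CACCTG for E box proteins and TGTGGT for RUNX factors.
Cd3d, chr9:44981536-44981785, plus strand: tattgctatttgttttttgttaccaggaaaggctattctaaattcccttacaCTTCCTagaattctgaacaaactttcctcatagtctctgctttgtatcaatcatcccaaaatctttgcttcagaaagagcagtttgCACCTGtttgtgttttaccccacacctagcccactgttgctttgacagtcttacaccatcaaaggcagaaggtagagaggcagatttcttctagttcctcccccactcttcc
Cd3g, chr9:44980432-44980681, minus strand: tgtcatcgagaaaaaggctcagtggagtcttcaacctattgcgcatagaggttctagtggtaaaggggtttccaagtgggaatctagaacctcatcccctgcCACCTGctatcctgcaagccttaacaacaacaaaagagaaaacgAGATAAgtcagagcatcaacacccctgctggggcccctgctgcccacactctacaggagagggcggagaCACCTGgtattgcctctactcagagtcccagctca
Il1rl1, first start, chr1:40429320-40429569, plus strand: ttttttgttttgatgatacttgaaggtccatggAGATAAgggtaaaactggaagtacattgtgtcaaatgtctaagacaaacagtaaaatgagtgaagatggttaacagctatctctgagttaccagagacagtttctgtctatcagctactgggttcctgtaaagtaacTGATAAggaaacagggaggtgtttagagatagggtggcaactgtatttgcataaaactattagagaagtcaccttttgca
Il1rl1, second start, chr1:40439379-40439628, plus strand: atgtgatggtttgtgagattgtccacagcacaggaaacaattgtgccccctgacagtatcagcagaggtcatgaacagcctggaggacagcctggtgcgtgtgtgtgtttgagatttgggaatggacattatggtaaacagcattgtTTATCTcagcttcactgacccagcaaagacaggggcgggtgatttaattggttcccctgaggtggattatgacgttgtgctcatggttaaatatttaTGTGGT
Upstream sequence was at hand for 8 of the 10 genes (11 stretches). The ETS letters stood in 5 of the 11 stretches, those before Cd3d, Cd3e, both starts of Lck and 1 of Foxp3, and in 29.5% of all 32851 mouse promoters of that length. The GATA letters stood in 5 of the 11, before Cd3g, both starts of Foxp3 and both starts of Il1rl1, against 16.6% of all promoters. The E box letters were found in 3 of the 11, in Cd3d, Cd3g and 1 Lck start (17.2% of all), and the RUNX letters in 2 of the 11, at 1 start of Lck and 1 of Il1rl1 (14.0% of all). The stretches before Cd8a and Gata3 held none of the 4 motifs. These are matches of letters and not measured binding.

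A level below is the log2 signal of a probe minus the 75th percentile of its array, so that 0 is the brightness at that percentile and each unit is a doubling. Levels of different genes were not set against each other, since probes differ in brightness. Among 39 arrays LFC week 3 and HFC week 12 stood apart, with 14811 and 9361 probes marked as outlier spots and dim probes that read high, as for Foxp3 (-2.79 and -3.55), Cd3e (-1.56 and -2.99) and Cd4 (-1.57 and -3.69). Values on these arrays were kept in the tests, as labelled. Named results of the 10 genes that turn on them are given without them, or without their week, as well. Outlier spots dropped Cd3d and Gata3 on LFC week 3 and Cd3g on both arrays from the fits. On the other 37 arrays 54.8% to 80.6% of probes were well above background. The adipocyte markers Adipoq, Plin1, Cidec and Fabp4 were well above background on 37 of 37 arrays. HF5 week 9 was the dimmest of the 37, with the lowest share (54.8%) and a 75th percentile of 6.90, against 8.44 on the next. Cidec (8.05) and Fabp4 (9.05) were also highest on HF5 week 9, and whether the scaling raised levels on that array was not tested. Lcn5, an epididymal lipocalin, was above background on 18 of 37, at up to 5.95 on LFC day 1. The arrays were scanned on 13 dates, and scan date ran with time point: the 4 early days were scanned after all weeks, and week 0 was the only early time point scanned among the weeks. At week 6, LFC, HFC and HF5 were scanned on 1 date and HF20 and HF75 on another.

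Among weeks 3 to 18 the medians of the CD3 delta and gamma chains and of Lck over the diets were highest at weeks 6 and 9, with HF5 as an exception for Cd3g (-5.48 at week 6 and -3.52 at week 9, below -2.92 at week 12 and -2.40 at week 15) and with HFC highest earlier, at day 10, for all 3 genes. Cd3d ran from -3.17 at week 18 to 1.87 at week 6 on LFC (median -1.98), from -3.16 at week 3 to 1.26 at day 10 on HFC (median -2.04), from -3.78 at week 18 to 1.28 at week 9 on HF5 (median -2.11), from -2.62 at week 3 to 0.41 at week 6 on HF20 (median -1.10), and from -3.96 at week 15 to 0.37 at week 6 on HF75 (median -2.22). The ranges of the 5 diets overlapped throughout, and the spread within a diet exceeded any difference between diet medians. By time, the median of Cd3d over the diets was -2.55 at week 3 (4 arrays), 0.41 at week 6, -0.11 at week 9, -1.48 at week 12 (4 arrays), -1.47 at week 15 and -3.17 at week 18. The week 3 arrays (-3.16 to -2.44) and the week 9 arrays (-0.26 to 1.28) did not overlap. The level of 1.28 was on HF5 week 9, the dimmest array. Week 6 was split: 4 diets lay between 0.37 and 1.87, and HF5 lay at -2.44. Lck, the proximal kinase, showed the same arrays high, with 1.60 on LFC week 6, 0.75 on HFC day 10 and 0.58 on HFC and HF75 week 6, and its lowest level of -3.28 on HFC week 3. Its week medians were -1.74 at week 3, 0.58 at week 6, -0.26 at week 9 and -1.67, -1.71 and -1.57 at weeks 12, 15 and 18. Cd3g reached -0.10 on LFC week 6, -0.38 on HFC day 10 and -0.55 on HFC week 9, and was lowest on HF75 week 15 (-5.54), HF5 week 6 (-5.48) and HF20 week 3 (-5.14). On both control diets the early arrays other than HFC day 10 were flat, with Cd3d between -2.81 and -1.79 and Lck between -2.08 and -1.06. The chemokine receptor Ccr7 at week 6 was 3.48 on LFC, 2.09 on HFC and 2.26 on HF75, but -2.58 on HF20 and -2.06 on HF5. Glycam1, a lymph node gene described below, was highest on HFC week 6 (3.24). The part of lymph node or other tissue in the week 6 levels was not tested.

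The coreceptor chains of cytotoxic T cells, Cd8a and Cd8b1, peaked on the same arrays. Cd8a was 0.07 on HFC day 10, -0.01 on LFC week 6, -0.28 on HF20 week 6 and -0.83 on HFC week 6, whereas HF5 week 6 was at -4.92 and HF75 week 15 at -6.60, the latter not well above background with this probe although another Cd8a probe was (-5.28). Its median was -4.17 at week 3, -0.83 at week 6, -1.62 at week 9 and -4.72 at week 18. Both other Cd8a probes followed the brightest one (r = 0.94 and 0.86 over 37 arrays) and had their highest levels of the 37 arrays on HFC day 10, LFC week 6 and HF20 week 6, at -0.93, -1.52 and -0.63 for the brighter of them and -3.02, -2.90 and -3.48 for the dimmer. Cd8b1 reached -1.01 on HFC day 10, -1.07 on LFC week 6 and -1.62 on HF20 week 6, and was not well above background on 5 of 39 arrays, with HF5 week 6 lowest at -7.58. HF5 week 6 was thus low for Cd3d, Cd3g, Cd8a and Cd8b1, while its Lck level of -0.95 lay above the median of the HF5 arrays (-1.42).

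Cd3e and Cd4 were dimmer and had another order of arrays. Cd3e, the epsilon chain, was well above background on 36 of 39 arrays, and among the 37 arrays was highest at week 18 on LFC (-2.12) and HFC (-2.39), where Cd3d was low (-3.17 and -2.30). Its other levels lay between -6.52 on HF5 week 6 and -3.20 on HFC day 10. Cd4, the helper cell coreceptor, which macrophages can also express, was well above background on 32 of 39 arrays. It was likewise highest at week 18 on HFC (-3.33) and LFC (-3.48), and on these diets it was lowest at week 9 (-7.58 and -7.13), when Cd3d was high. The KAL-1 diets had their lowest Cd4 level in other weeks, HF5 in week 6 (-6.59), HF20 in week 12 (-5.92) and HF75 in week 18 (-6.02), and at week 9 they were at -6.12, -5.37 and -5.59, with only HF20 of the 5 diets well above background. Cd4 at week 9 is therefore a bound on 4 of 5 diets rather than a level.

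**Figure D1:**
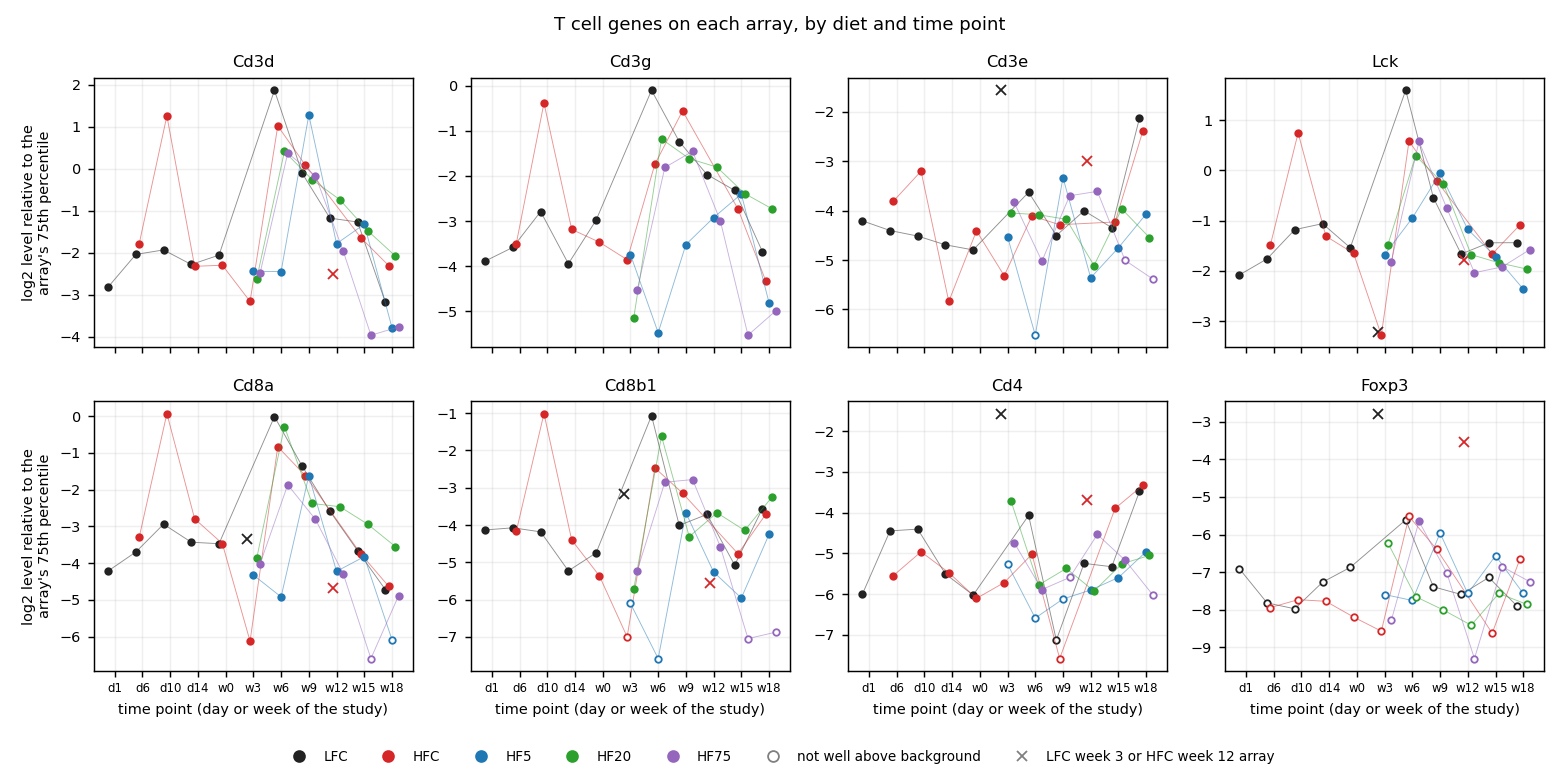
Levels of 8 T cell genes by time point (x axis) and diet (colour); the y axis is the log2 signal relative to the 75th percentile of the array, 1 point per array, open where not well above background and crossed for LFC week 3 and HFC week 12. Cd3d, Cd3g, Lck, Cd8a and Cd8b1 were high at week 6 on 4 diets and on HFC day 10, and HF5 week 6 lay low for these genes other than Lck. Cd3e and Cd4 were highest at week 18 on LFC and HFC, and Foxp3 was above background on 1 of 37 arrays without a cross.

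Foxp3 was at the limit of the arrays. Its probe was well above background on 3 of 39 arrays, of which LFC week 3 and HFC week 12 were the arrays with high dim probes, so that HF75 week 6 (-5.65) was the sole reading above background among the other 37, whose levels ran from -9.30 to -5.52. HFC week 6 (-5.52) and LFC week 6 (-5.61) were the nearest levels, both not well above background. Foxp3 passed the filter for no comparison and no fold change is given for it. Other genes that regulatory T cells are known for were measurable: 10 of the 14 on the list (Ctla4, Il2ra, Ikzf2, Tnfrsf18, Tnfrsf4, Klrg1, Areg, Il10, Ccr8, Icos, Izumo1r, Gpr83, Tigit and Lrrc32) had a probe well above background on 20 or more of the 37 arrays. Icos, a costimulatory receptor, had its highest level on LFC week 6 (0.47) and was at -0.75 on HFC, -1.06 on HF75, -3.59 on HF20 and -4.51 on HF5 in that week. Ctla4, the inhibitory receptor, was well above background on 18 of the 37 arrays and so not among the 10. It was also highest on LFC week 6 (-1.49), at -3.34 on HFC and -3.31 on HF75, and not well above background on HF20 and HF5 in that week. Activated conventional T cells express these receptors as well. Ccr8, Gpr83 and Tigit also had their highest level of the 37 arrays on LFC week 6. The other genes of the list did not: Klrg1 was highest on HFC week 9 and Il10 on HF20 week 9. Il2ra, Tnfrsf18 and Tnfrsf4 were highest on HF5 week 9, and Areg, Ikzf2, Izumo1r and Lrrc32 at week 15 or 18. Correlations of the 14 genes with the mean of Cd3d, Cd3e, Cd3g and Lck ran from -0.01 to 0.79 (median 0.41).

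Il1rl1 had a course of its own. The variant 1 probe, the brightest, was well above background on 39 of 39 arrays and ran from -3.05 on LFC day 14 to 1.02 on HF75 week 9. Its medians were -1.95 at week 3, -0.81 at week 6, 0.48 at week 9, -0.64 at week 12, -0.0039 at week 15 and -1.26 at week 18. Week 9 was high on every diet (-0.36 to 1.02), and weeks 12 and 15 stayed high on HF5 (0.61 and 0.68) and week 15 on LFC (0.57). The variant 2 probe was well above background on 29 of 39 arrays, on 12 of 19 up to week 6 and on 17 of 20 from week 9 on. At week 9 it lay between -1.88 and -1.18 on all 5 diets, its highest median of any week (-1.41), and at week 12 it lay at -7.19 on LFC (not well above background), -6.17 on HF20 and -6.69 on HF75, but at -1.85 on HF5. The variant 1 probe at week 12 differed less between these diets, from -1.22 to 0.61. The probe in shared sequence was well above background on 1 of 39 arrays (HFC day 14, -6.35), and the probes correlated at 0.55 for variants 1 and 2 and at 0.50 and 0.68 with the shared probe (37 arrays). Gata3 was well above background on 38 of 39 arrays. Its highest level was 1.02 on LFC day 1, where the Lcn5 level was also highest and the summed signal of 4 epididymal genes was 6.72. Over the 37 arrays Gata3 correlated with these 4 genes at 0.62 (Crisp1), 0.51 (Lcn5), 0.28 (Adam7) and 0.15 (Rnase10). The part of that tissue in the Gata3 values was not tested. Gata3 was highest at week 9 on HFC (0.10), HF20 (-0.05) and HF75 (0.30). On HF5 week 12 (-0.34) lay above week 9 (-0.49), and on LFC week 15 (-0.11) lay above week 9 (-0.23). Its lowest levels were -3.17 on HFC day 6 and -3.13 on LFC day 6.

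**Figure D2:**
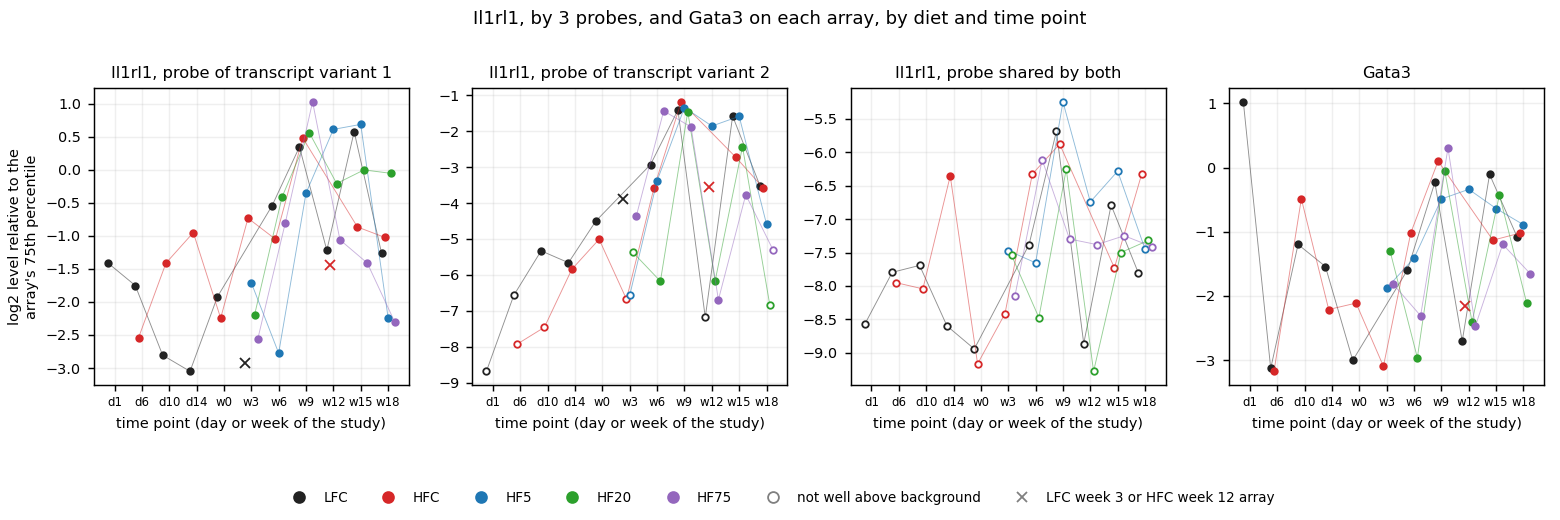
Levels of the 3 Il1rl1 probes and of Gata3 by time point (x axis) and diet (colour), with the log2 signal relative to the 75th percentile of the array on the y axis, 1 point per array; open points are not well above background and crosses mark LFC week 3 and HFC week 12. Variants 1 and 2 of Il1rl1 and Gata3 were high on all 5 diets at week 9, the variant 2 probe spread from -7.19 to -1.85 at week 12, and Gata3 was highest on LFC day 1.

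Across the 37 arrays Cd3d, Cd3g, Lck, Cd8a and Cd8b1 formed 1 block, with Pearson correlations of 0.64 to 0.92 in all 10 pairs. Cd3e correlated with these 5 at 0.21 to 0.56 and with Cd4 at 0.55, whereas Cd4 correlated with them at -0.20 to 0.15. Il1rl1 correlated with the 5 at 0.22 to 0.62 and Gata3 at 0.08 to 0.21, and Il1rl1 with Gata3 at 0.42. The arrays share slides, scan dates and the same scaling, so these values describe the arrays and carry no test. Ranked by the mean of Cd3d, Cd3e, Cd3g and Lck, each centred on its own mean, the highest arrays were LFC week 6 (2.42), HFC day 10 (2.09), HFC week 6 (1.42), HF20 week 6 (1.34) and HFC week 9 (1.24). Of the 10 highest arrays 9 were from weeks 6 and 9, and the lowest were HF75 week 15 (-1.62), HF75 week 18 (-1.45), HFC week 3 (-1.42) and HF5 week 6 (-1.37). Between the median of the 5 highest arrays and that of the other 32, Cd8a, which did not enter the ranking, differed 10.5-fold and Cd8b1 6.68-fold. Those 2 genes, like the ranked ones, were measured on the same arrays, and Cd4 differed 1.32-fold, Il1rl1 1.51-fold and Gata3 1.26-fold.

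Of 27712 probes the 10 gene names most like this mean were the beta constant segment of the T cell receptor (0.95), Cd5 (0.95), a Tcrb-V13 receptor beta chain (0.94), Ctsw (0.92), Zap70 (0.92), Sh2d1a (0.91), Itgal (0.90), Cd2 (0.90), Cd6 (0.89) and Sh2d2a (0.89). All but Ctsw, a protease of cytotoxic cells, and Itgal, an integrin chain of leukocytes, are receptor chains, surface antigens or signalling proteins known from T cells. Il1rl1 was most like Antxr2 (0.86), Gramd3 (0.80), Igh (0.79), Efemp1 (0.79) and Ccbp2 (0.78). Gata3 was most like Rab11fip1 (0.77), Ramp3 (0.76), Rasgrf1 (0.74), 1810032O08Rik (0.73) and Gm14336 (0.72). For Foxp3, whose values were mostly below background, the nearest were Tmem194b (0.70), LOC100048841, described as similar to the activated T cell molecule AILIM (0.68), Snord32a (0.68), Ccr7 (0.66) and B3gnt5 (0.66).

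Markers of other lymphocytes moved with the T cell genes on part of the arrays. The B cell list (of its 6 genes, 4 stood well above background on 20 or more of the 37 arrays) had a summed level between -1.69 and 2.62 on LFC, -0.61 and 2.01 on HFC, -1.17 and 2.19 on HF5, -1.22 and 1.78 on HF20, and -1.43 and 2.80 on HF75, and its correlation with the T cell mean was 0.68. Cd79b, a chain of the B cell receptor, was 1.45 on LFC, 1.04 on HFC, 1.38 on HF20 and 1.96 on HF75 at week 6, and -1.05 on HF5 at week 6 and -0.56 on HFC day 10. The week 6 arrays that were high for Cd3d were thus high for Cd79b, and HFC day 10 was high for Cd3d without it. The NK cell list (3 of 4 genes) correlated at 0.66, with summed levels from -4.29 to 0.59 on LFC, -4.16 to -1.03 on HFC, -5.21 to -1.75 on HF5, -4.20 to -0.50 on HF20 and -4.58 to -0.49 on HF75. Klrk1, the dimmest of the list (well above background on 19 of 37 arrays), was highest on HFC day 10 (-3.26), as was Ncr1 (-3.04). Klrb1c was highest on LFC week 9 (0.33) and Klra8 on HF75 week 9 (-2.06). Glycam1, which the high endothelium of lymph nodes makes, was well above background on 6 of 37 arrays, at 3.01 on LFC, 3.24 on HFC, 1.90 on HF75 and 0.91 on HF5 at week 6, but not on HF20 week 6 (-8.83), and at no more than -5.13 elsewhere. The lymph node list (Ccl19, Cxcl13, Glycam1 and Cr2, of which 2 of 4 were measurable in this sense on 20 or more arrays) had summed levels of 1.55 to 4.79 on LFC, -0.58 to 4.80 on HFC, 2.35 to 4.29 on HF5, 0.74 to 2.94 on HF20 and 1.64 to 4.10 on HF75. The high Glycam1 on HF5 week 6 went with the low Cd3d of that array, and HF20 week 6 had a high Cd3d level without Glycam1. Rag1, which marks thymocytes, was well above background on 0 of 37 arrays. The summed adipocyte, macrophage and mast cell lists correlated with the T cell mean at -0.07, 0.32 and 0.45. The part of lymph node or other tissue in these levels was not tested.

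**Figure D3:**
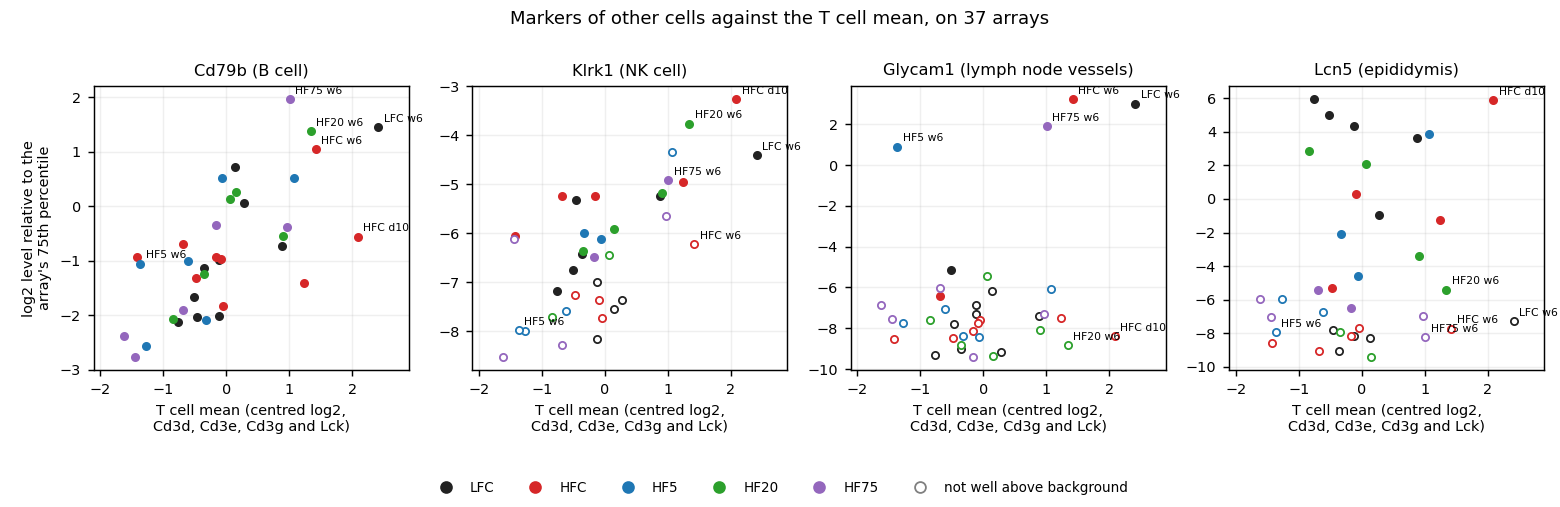
Levels of Cd79b, Klrk1, Glycam1 and Lcn5 (y axis, log2 signal relative to the 75th percentile of the array) against the mean of the centred levels of Cd3d, Cd3e, Cd3g and Lck (x axis, log2), 1 point for each of 37 arrays, coloured by diet. Cd79b was higher where the T cell mean was higher (r = 0.70), and Glycam1 was near or above 1 on 4 of the week 6 arrays only.

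The first question was whether the high fat diet alone shifted these genes. HFC was compared with LFC by limma with the time point as a block, on the probes well above background on enough arrays, and 9 of the 10 genes were tested in each comparison. Over 10 shared time points 0 of 9 genes passed an adjusted p of 0.05, as did 0 of 29168 probes (0% of all), and none had an unadjusted p under 0.05 (1.36% of all probes did higher and 1.68% lower). In this comparison 5 genes were higher on HFC and 4 lower, with a median difference of 0.09 log2 against 0.03 for all probes. Cd4 had the smallest p, with a difference of -0.41 (SE 0.45, p = 0.378, limma), and the difference went to 0.003 without week 3. Over weeks 3 to 18, 8 of 9 genes were lower on HFC, with a median of -0.42 against 0.06 for all probes, and again 0 of 9 passed (0% of 31450 probes did, and unadjusted 1.24% were higher and 1.06% lower). Cd8a differed by -0.99 (SE 0.59, 95% interval -2.22 to 0.23, p = 0.106, limma) and was lower in 5 of 6 weeks. The Cd8a differences were largest at weeks 3 (-2.78) and 12 (-2.10), the weeks of the arrays that stood apart. In the other weeks they lay between -0.82 and 0.09. Without week 3 the Cd8a difference was -0.64 (p = 0.326, limma). The intervals of Il1rl1 (-0.94 to 1.07) and Gata3 (-0.96 to 0.74) leave room for changes of about a doubling in either direction.

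With the 4 high fat diets together against LFC over weeks 3 to 18, 8 of 9 genes were lower and the median was -0.81 against 0.04 for all probes. Of the 9 genes 3 had an unadjusted p under 0.05, all lower, where 3.31% of all probes did so lower and 2.79% higher, and 0 of 9 passed after adjustment (0% of 31450 probes). Cd3e differed by -0.99 (SE 0.43, p = 0.0320), Cd8a by -0.99 (SE 0.47, p = 0.0443) and Cd8b1 by -1.21 (SE 0.58, p = 0.0486), each with an adjusted p of 0.757 (limma, Benjamini-Hochberg). Both other Cd8a probes gave -1.11 (p = 0.0165) and -1.21 (p = 0.0426) in the same fit, and the Cd8a mean of the high fat diets lay under LFC in 6 of 6 weeks. These p-values turned on the 2 arrays that stood apart: without LFC week 3 and HFC week 12 all 9 genes were lower, at a median of -0.51, but their p-values were 0.139 for Cd3e, 0.109 for Cd8a and 0.217 for Cd8b1. They turned on the scaling as well: after quantile scaling the differences were -0.35 for Cd3e (p = 0.315), -0.19 for Cd8a (p = 0.775) and -0.41 for Cd8b1 (p = 0.531), and the median of the 9 genes was -0.31 with 7 lower. Among 58 other T cell genes 8 had an unadjusted p under 0.05 lower and 1 higher. The 17 receptor and signalling genes had a median of -0.69, with 13 lower, and included Sh2d1a, a signalling adaptor (-1.45, p = 0.00371), Cd28, the costimulatory receptor (-1.24, p = 0.0133), and Cd27 (-0.98, p = 0.0148). Ctla4 differed by -1.88 (p = 0.0340), and Tcf7, a transcription factor of naive T cells, by -1.09 (p = 0.0380). Of the effector genes, the granzyme Gzmk differed by -1.26 (p = 0.0232), and no fold is given for Il17a, whose probe was well above background on 4 of 37 arrays. The Ctla4 and Gzmk probes were well above background on 18 of 37 arrays each, so many of their readings are bounds. Without LFC week 3 and HFC week 12 the differences were -0.79 for Ctla4 (p = 0.298), -0.48 for Tcf7 (p = 0.327), -0.70 for Cd28 (p = 0.136), -0.56 for Cd27 (p = 0.123), -1.06 for Sh2d1a (p = 0.0381) and -1.26 for Gzmk (p = 0.0232), and 0 of the 58 passed after adjustment in the full set (limma). The Gzmk value was the same with and without these 2 arrays, but it went to -0.63 without week 18 (p = 0.245, limma).

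The second question was whether KAL-1 shifted these genes at the same weeks of the high fat diet. Against HFC, 0 of 9 genes passed at 5, 20 or 75 µg or over the mean of the 3 doses, and 0% of 31450 probes passed in each of these 4 comparisons. No gene had an unadjusted p under 0.05, against 1.13% of probes higher and 2.3% lower for HF5, 1.52% and 3.32% for HF20, 0.264% and 1.24% for HF75, while the average over all doses gave 0.13% higher and 1.62% lower. Cd3g had the smallest p for HF5, with -1.29 (SE 0.65, 95% interval -2.62 to 0.05, p = 0.0602), for HF75, with -1.02 (SE 0.65, -2.36 to 0.31, p = 0.128), and for the mean, with -0.75 (SE 0.54, p = 0.180). Cd8a had it for HF20, with 1.03 (SE 0.59, -0.19 to 2.25, p = 0.0953), higher than HFC in 5 of 6 weeks (limma). Leaving out week 12, whose HFC array stood apart, raised that p to 0.269 (limma). Side by side over the doses, Cd8a differed from HFC by -0.56, 1.03 and -0.47 at 5, 20 and 75 µg, Cd3g by -1.29, 0.05 and -1.02, and Lck by -0.08, 0.08 and -0.01. HF20 had the highest of the 3 values in each of these genes, HFC is shared by these comparisons, and the doses were not tested against each other. Genes lower than HFC numbered 8 of 9 for HF5, 3 of 9 for HF20, 9 of 9 for HF75 and 7 of 9 for the mean, but these counts depended on the scaling: after quantile scaling they were 4, 0, 3 and 2. Of the list genes, the signalling genes Sh2d1a, Ubash3a and Cd27 differed by -1.36, -1.23 and -1.10 at 5 µg (p = 0.0251, 0.0234 and 0.0365), and Prf1, the pore-forming protein of cytotoxic cells, by -1.21 (p = 0.0209), each with an adjusted p of 0.954 (limma). The Ubash3a probe was well above background on 13 of 37 arrays, so most of its readings are bounds. Il2ra and Lrrc32, both carried by regulatory T cells, differed by -1.32 (p = 0.0257) and -1.43 (p = 0.0490) at 20 µg, and Eomes, a factor of cytotoxic cells, by -1.44 (p = 0.0339) at 75 µg, with adjusted p-values of 0.780 and 1.00 (limma). Without LFC week 3 and HFC week 12 these differences were -1.08 for Il2ra (p = 0.0536), -0.98 for Lrrc32 (p = 0.155) and -0.94 for Eomes (p = 0.139, limma). Over the 37 arrays Lrrc32 correlated with the T cell mean at -0.01, Il2ra at 0.25 and Eomes at 0.79. Which cells gave the Lrrc32 and Il2ra levels was not tested.

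The third question was whether the genes differed between weeks 3 to 18 and the first 2 weeks. Within LFC 9 of 9 genes were higher late, with a median of 1.04 against -0.09 for all probes, 2 of 9 with an unadjusted p under 0.05 (2.14% of all probes did so higher and 3.38% lower) and 0 of 9 after adjustment (149 of 30418 probes, 0.49%, passed). Cd3g was higher by 1.58 (SE 0.60, p = 0.0222, adjusted p = 0.763) and Il1rl1 by 1.35 (SE 0.60, p = 0.0428, adjusted p = 0.885), but after quantile scaling Il1rl1 differed by 0.56 (p = 0.681, limma) and the median of the 9 genes was 0.45 with 8 higher. The variant 2 probe of Il1rl1 gave 2.73 (SE 1.00, p = 0.0180, adjusted p = 0.707, limma). The late LFC arrays include week 3, where dim probes read high, and the count of 9 and its median are not given without it. Cd3g had no value on that array, and Il1rl1 (variant 1 probe) differed by 1.77 without it. Within HFC Il1rl1 was higher late by 1.01 (SE 0.43, p = 0.0373, adjusted p = 0.276) and its variant 2 probe by 3.01 (p = 0.00823, adjusted p = 0.227), while the 9 genes split into 4 higher and 5 lower, with a median of -0.01 (0 of 30581 probes, 0%, passed, and unadjusted 8.05% were higher and 8.8% lower). The early days were scanned apart from the weeks, and with week 0 alone as the early array Il1rl1 differed by 1.09 on LFC (p = 0.395) and 1.47 on HFC (p = 0.0656), in the same direction. The difference of these contrasts, HFC minus LFC, had 8 of 9 genes lower and Cd8a at -2.01 (SE 0.74, p = 0.0193, adjusted p = 0.841), where 1.47% of 29168 probes had such a p lower, 3.67% higher and 0% passed. Without LFC week 3 and HFC week 12 that value of Cd8a was -1.28 (p = 0.0679).

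Most genes of the T cell receptor and regulatory T cell lists also had higher levels late within LFC. Within LFC 15 of 16 receptor and signalling genes and 13 of 13 regulatory T cell genes were higher, with medians of 1.42 and 1.34. Of them 8 and 4 had an unadjusted p under 0.05 (limma), where 2.14% of all probes did so higher. These counts and medians include LFC week 3, where dim probes read high, and are not given without it. Leaving out week 3 gave differences of 2.04 for Il2ra and 3.00 for Il7r, whose full values follow. Trat1, an adaptor of the receptor, differed by 3.43 (p = 0.00113), Lat, the central adaptor, by 2.94 (p = 0.00504), Cd28 by 2.47 (p = 0.00422), Il2ra, the IL-2 receptor alpha chain, by 2.41 (p = 0.00178), Tnfrsf18 by 1.999 (p = 0.00428) and Il4 by 1.70 (p = 0.00684). Il7r, the IL-7 receptor chain of resting T cells and innate lymphocytes, rose by 2.72 (SE 0.54, adjusted p = 0.0497, limma) and was the only gene of the lists to pass in any of the 11 comparisons. It passed in 4 of the 22 alternatives tried, with adjusted p-values from 0.00573 to 1.00. Within HFC Il2ra differed by 2.61 (p = 0.000518), Lrrc32 by 2.07 (p = 0.0139), Il7r by 2.43 (p = 0.00799), Il5 by 2.71 (p = 0.0256), Klf2 by 1.70 (p = 0.00797), Fyn by 1.24 (p = 0.00884), Trat1 by 2.16 (p = 0.0218) and the chemokine receptor Cxcr3 by -1.50 (p = 0.0372), none of which passed after adjustment (limma). The Il5 probe was well above background on 17 of 37 arrays, so many of its readings are bounds. Over the 37 arrays the correlation with the T cell mean was -0.01 for Lrrc32, -0.03 for Klf2, 0.16 for Fyn, 0.22 for Il5 and 0.25 for Il2ra. It was 0.63 for Il7r, 0.65 for Cxcr3 and 0.72 for Trat1. Which cells gave these levels was not tested. Areg, a growth factor that tissue regulatory T cells make, differed by 4.50 (p = 0.0383) within HFC, and by -0.48 with week 0 alone as the early array. With that setting 11 of 13 regulatory T cell genes (median 1.29) and 12 of 16 receptor and signalling genes (median 1.31) were still higher within LFC. Within HFC 11 of 13 (median 0.92) and 14 of 17 (median 0.60) were higher. Week 0 is 1 array per diet, so this setting gives directions only. The early days were scanned apart from the weeks, so for the genes named above late against early cannot be told apart from scan date.

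The last question was whether levels moved from week 3 to week 18 across the 5 diets, with diet as a block. Cd3d had a slope of -0.12 log2 per week (SE 0.05, p = 0.0274, adjusted p = 0.452) and Cd8a of -0.11 (SE 0.05, p = 0.0433, adjusted p = 0.490), and 0 of 9 genes passed, with 13 of 31450 probes passing (0.0413%) and 5.87% and 4.03% of probes having an unadjusted p under 0.05 upwards and downwards. A straight line describes these genes poorly, since week 3 was low and weeks 6 and 9 were high. Without week 3 the slopes were -0.29 for Cd3d (adjusted p = 0.00326), -0.29 for Cd8a (adjusted p = 0.00378), -0.19 for Lck (adjusted p = 0.00411) and -0.18 for Cd3g (adjusted p = 0.0510), and 3 of 9 genes passed, all falling, where 2.01% of all probes passed and 1.54% fell (limma). Week 3, the first of the trend, was low for these genes, so leaving it out steepens a fall. These adjusted p-values therefore do not test a fall over weeks 3 to 18. The trend fits took the arrays of a week as independent replicates, although most arrays of a week shared a scan date. Their p-values can therefore be too small. Leaving out other weeks made the slopes flatter: without week 18 they were -0.05 for Cd3d (p = 0.488) and -0.06 for Cd8a (p = 0.446), and without week 6 they were -0.07 (p = 0.224) and -0.06 (p = 0.262). Of the other lists Lat (-0.20, p = 0.00226), the cytotoxic granule genes Gzma (-0.16, p = 0.00226), Prf1 (-0.11, p = 0.00234) and Nkg7 (-0.12, p = 0.0125), Lef1 (-0.15, p = 0.0253) and Cd27 (-0.08, p = 0.0395) had negative slopes over weeks 3 to 18, and S1pr1, the receptor for leaving lymphoid tissue, a positive one (0.08, p = 0.0372), none past adjustment. S1pr1 correlated with the T cell mean at -0.11, against 0.55 to 0.85 for the list genes with negative slopes, and which cells gave its level was not tested. Scan date ran with the week, so slope and scan date cannot be told apart.

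**Figure D4:**
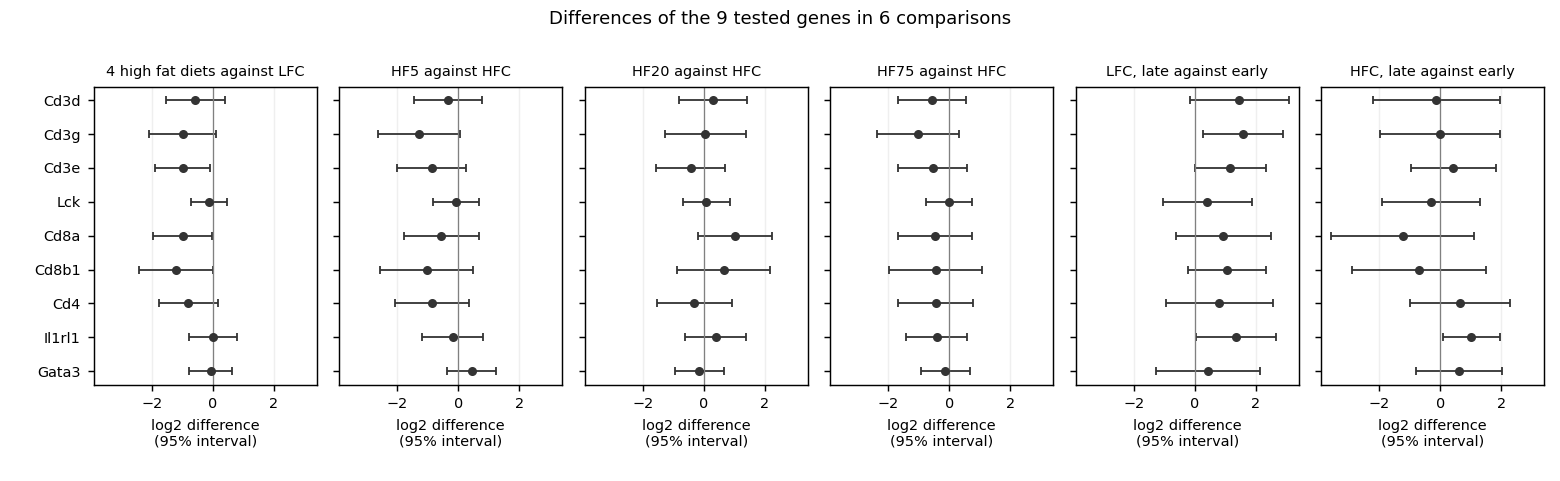
Fitted log2 differences (points) with 95% intervals (bars) for the 9 tested genes in 6 comparisons; the x axis is the difference in log2 signal, with 0 marked. Intervals of Cd3e, Cd8a and Cd8b1 lay just under 0 for the 4 high fat diets against LFC and those of Cd3g and Il1rl1 just above 0 for late against early within LFC, and no gene passed after adjustment in these comparisons.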

How the data were processed

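Epididymal adipose RNA was measured on 39 Agilent 1-colour mouse arrays, 1 per diet and time point. Per the file headers the deposited scanner files hold intensity values made with Feature Extraction 10.5.1.1, while the submitters' processing notes name version 9.1, and the signal used, gProcessedSignal, was already background-corrected by that software. The deposited series table holds log2 values that the authors expressed relative to LFC at the matching time point. It was used only as a check: of 267 values of the 10 genes 265 lay within 0.1 of the same difference taken from the scanner files, and the largest departure was 0.727. The arrays' number limits the precision, and no depth applies.

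Control spots were left out, outlier spots were set to missing, spots of a probe were averaged, and the 75th percentile of log2 signal was subtracted from each array. Tests were run with limma 3.58.1 (lmFit and eBayes, R 4.3.3, two-sided) on the whole table, with Benjamini-Hochberg adjustment at 0.05 over all probes that were well above background on at least 10 of 20 (HFC against LFC over 10 time points), 6 of 30 (weeks 3 to 18), 5 of 11 (LFC) or 4 of 10 (HFC) arrays. The same number of the time point in the labels paired the diets, so time point was the block of the diet comparisons. Each diet or dose comparison over weeks 3 to 18 was fitted on the 30 arrays of all 5 diets. Its standard errors therefore rest on the spread in all 5 diets and not only in those compared. Fits were tested on simulated data. Figures and tables used Python 3.11.15, pandas 2.3.3, numpy 2.4.6 and matplotlib 3.10.9.

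All 10 genes were described. A gene was named in a comparison with its statistics when its unadjusted p was under 0.05, otherwise the one with the smallest p, and at most 3 per further list; 1 gene of these lists is not reported here. The genes and lists were chosen with earlier results of these data known. Mouse promoter and gene positions came from RefSeq (GRCm38.p6), where all 10 names matched, and no coordinates of the arrays' own build were used. Alternatives were normexp background correction, quantile or median scaling, array weights, other filters and blocks, the methods' t-test, and leaving out arrays or time points.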

Additional observations from a re-analysis of the deposited data

Results flagged for a closer look

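Il1rl1 on HF20 at week 3 had a level of -2.2, far from the nearest of the other HF20 arrays (-0.42, n = 6). It was the only such value in 43 groups of a gene's levels that were looked at, where chance gives about 1 in 20. The week 3 levels of Il1rl1 were -2.56 on HF75 and -1.71 on HF5, while HFC was higher at -0.73.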

How the results depend on the processing

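No member passed in the 7 diet and dose comparisons, within HFC or for the difference of HFC minus LFC under any alternative (limma, smallest adjusted p 0.0665). Within LFC 1 of 204 tests of a member passed (Il1rl1 with array weights, 2.32, adjusted p = 0.0243), and in the trend 3 of 156 (Cd3d, Cd8a and Lck without week 3). In the diet comparisons the fit with no replicate block (time point left out of the pairing) gave 0 probes passing in all 7. The methods' t-test gave 39 probes within LFC after Benjamini-Hochberg adjustment. Counts of probes passing over the whole table moved as follows. For the 4 high fat diets against LFC array weights gave 1, and for the mean of the KAL-1 doses leaving out 1 time point gave 0 to 1 (1 without week 3). Within LFC (149) the count was 40 with probes above background on every array, 0 for a linear trend over days, 82 with outlier spots kept, 78 with median scaling, 67 with quantile scaling, 0 with normexp, 0 with week 0 as the only early array, 331 with array weights, and 50 to 213 leaving out 1 time point. Within HFC (0) it was 47 with median scaling, 1 with week 0 only, 7917 with array weights, and 0 to 743 leaving out 1 time point (743 without week 0, 1 without week 3). The difference of HFC minus LFC gave 1 with week 0 only and 1 with array weights. The trend (13) gave 2 with probes above background on every array, 32 without LFC week 3 and HFC week 12, 31 for weeks 12 to 18 against weeks 3 to 9, 0 with median scaling, 2 with normexp, 4 with quantile scaling, 269 with array weights, and 0 to 631 leaving out 1 week (0 without week 6 or week 18, 631 without week 3). Cd4 for HFC against LFC over 10 time points was -0.63 to 0.003 leaving out 1 time point (0.003 without week 3) and 0.003 with scan date as the block, which splits only the week 3 arrays from their partners and so leaves the same pairs; Areg within HFC went to -0.48 with week 0 only, and the cause was not tested. Within LFC 43.7% of all probes were higher late, against 66.9% with normexp, 34.1% with quantile and 33.9% with median scaling, and for HF75 48.6% were higher than HFC, against 35.4%, 62.3% and 75.1%. The slide as a block was not run for the difference of HFC minus LFC. Signal close to background limits Foxp3, Cd4 and the variant 2 probe of Il1rl1, for which low readings are bounds.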
